A study of Mus musculus with 6 samples.

Results

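Lost regions inside genes are the stretches of open chromatin that the authors listed as less accessible in mutant fibroblasts and whose midpoint lies within a protein-coding gene. Members were thus chosen by the authors' differential accessibility call and by position. There were 258 of them among 556 lost regions and among 3521 listed regions in all, and they lay in 238 genes, called hosts here. Chromatin of mouse embryonic fibroblasts from E13.5 embryos was assayed by ATAC-seq, where a transposase inserts sequencing adapters into DNA that is not packed away. The 3 wild-type libraries were Acvr1+/+ and the 3 FOP mutant libraries were Acvr1R206H/+, heterozygous for the receptor mutation of fibrodysplasia ossificans progressiva (FOP). Both genotypes were grown in the same serum-containing medium, with no other agent named in the labels. The sources used here do not give the number of embryos behind each genotype. The question was which chromatin differs in accessibility between the genotypes.

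The values that chose these regions are the authors' own calls. A list row holds coordinates only, and the direction comes from the name of each list. They hold no signal, fold change or p-value for a region and no value for a library, so depth is unknown. The loss in a region cannot be compared with replicate error, and fibroblast markers cannot be checked. The loss of accessibility is therefore a description of how the regions were selected. What follows describes where the regions lie in their hosts, how long the hosts are and what the hosts encode. It also describes how they lie to the regions that gained accessibility. The rule of a midpoint inside a gene favours longer genes, which have more room for one. Host length against all genes is thus partly set by the rule. The 1344 gained regions inside genes, in 925 hosts and chosen by the same position rule, serve as the comparison.

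Acvr1 encodes ALK2, a type I receptor for bone morphogenetic proteins (BMPs). Ligand binding lets a type II receptor activate it, and it then phosphorylates SMAD proteins that enter the nucleus and regulate genes. In FOP the altered receptor signals too readily and responds to activin, and soft tissues such as muscle and tendon turn to bone. Open chromatin inside a gene can be an alternative promoter, an enhancer of that gene, or an enhancer of a gene further away, and position alone does not tell which. A gene that holds a region is thus a location and not a known target.

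The few lost regions that cover a listed transcription start of their host are shown first, because there the sequence concerned is a promoter. Of 258 members 3 (1.16%, exact 95% interval 0.240 to 3.36%) covered a transcription start in the RefSeq promoter table, at Tdrd7, Aunip and Klhdc7a. All 3 lay on chromosome 4. Of the gained regions inside genes 6 did so (0.446%, 0.164 to 0.969%). Starts were listed for the hosts of 200 of 258 lost and 1065 of 1344 gained regions. A covered start of any other host would be missed, so these shares may be too low. Tdrd7 encodes a Tudor domain protein of RNA granules, Aunip a partner of Aurora kinase A at the centrosome, and Klhdc7a a kelch domain protein. Their 250 bases before the start are given below from RefSeq (GRCm38.p6), 5′ to 3′ on the strand of the gene. The fourth sequence is a second promoter of Tdrd7 that the lost region does not reach. Capitals mark matches to the motifs named after the sequences.

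Tdrd7, covered start (chr4:45965085-45965334, plus strand): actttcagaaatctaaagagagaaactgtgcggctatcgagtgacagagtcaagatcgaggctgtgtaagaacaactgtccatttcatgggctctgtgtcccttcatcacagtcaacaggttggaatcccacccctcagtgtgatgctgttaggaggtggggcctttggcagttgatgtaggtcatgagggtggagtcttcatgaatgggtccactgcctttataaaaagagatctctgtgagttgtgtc

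Aunip, covered start (chr4:134510749-134510998, plus strand): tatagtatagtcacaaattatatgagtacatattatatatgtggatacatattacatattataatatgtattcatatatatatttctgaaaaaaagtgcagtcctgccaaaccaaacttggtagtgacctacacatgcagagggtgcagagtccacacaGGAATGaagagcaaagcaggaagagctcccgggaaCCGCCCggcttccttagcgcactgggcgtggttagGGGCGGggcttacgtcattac

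Klhdc7a, covered start (chr4:139968027-139968276, minus strand): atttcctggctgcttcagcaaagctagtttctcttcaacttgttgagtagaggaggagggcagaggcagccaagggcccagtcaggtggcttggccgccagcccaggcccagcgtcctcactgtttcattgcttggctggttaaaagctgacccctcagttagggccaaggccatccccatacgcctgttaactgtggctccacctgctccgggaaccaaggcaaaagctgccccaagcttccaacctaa

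Tdrd7, start not covered (chr4:45972047-45972296, plus strand): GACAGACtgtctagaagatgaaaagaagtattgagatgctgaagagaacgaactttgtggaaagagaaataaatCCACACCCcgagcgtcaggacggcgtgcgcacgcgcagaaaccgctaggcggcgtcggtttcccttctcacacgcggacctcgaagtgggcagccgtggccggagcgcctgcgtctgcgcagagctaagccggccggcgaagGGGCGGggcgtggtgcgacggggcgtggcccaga

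The lost region of Tdrd7 (chr4:45964742-45965376, 635 bp) took in the first listed start of the gene, at 45965335, and all 250 bases before it. That window was not CpG-rich: over the 250 bases before the start, GC content was 47.6% with 3 CpG dinucleotides. Of 32851 listed promoters, 32.4% had a lower GC content over the same stretch. The gene has further starts at 45972297 and 45972831, which lay 6.92 kb and 7.46 kb from the edge of the region. Those windows had 62.0% GC with 28 CpG and 73.2% GC with 29 CpG. The covered start of Tdrd7 was thus the one with the fewest CpG of the 3. Over all listed promoters the median was 52.4% GC (quartiles 45.2 to 61.2%) and 6 CpG (2 to 16).

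The region of Aunip (chr4:134510794-134511527, 734 bp) covered the start at 134510999 and 205 of the 250 bases before it. The window had 42.4% GC and 7 CpG, and its AT-rich far end is visible in the printed sequence. The region of Klhdc7a (chr4:139967408-139968314, 907 bp) covered the whole window of the start at 139968026, with 56.8% GC and 4 CpG. The 3 covered starts thus had 3 to 7 CpG, against 28 and 29 at the uncovered starts of Tdrd7.

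Matches to 19 motifs were searched on both strands in the 250 bases before each start. In Aunip these were the TEAD letters GGAATG, beginning 91 bases before the start, and the SP letters GGGCGG, once as CCGCCC at 56 bases and once as written at 21 bases. The covered starts of Tdrd7 and Klhdc7a held no match. The uncovered Tdrd7 promoter printed above held the SMAD letters GTCTGNC (as GACAGAC, at 250 bases), the KLF letters GGGTGTGG (as CCACACCC, at 176 bases) and GGGCGG at 34 bases. The other uncovered start of Tdrd7, at 45972831, held only the SP letters, as CCGCCC at 134 and 61 bases. Among all 32851 promoters, 12.6% held GGAATG, 32.7% GGGCGG, 12.6% GTCTGNC and 3.20% GGGTGTGG. The other letters searched, with the share of promoters that hold them, were AP-1 TGANTCA (6.75%), the SMAD palindrome GTCTAGAC (0.167%), GC-rich SMAD GGCGCC (9.59%), RUNX TGTGGT (14.0%), E-box CAGCTG (13.0%), ETS CCGGAAGT (2.88%) and CRE TGACGTCA (1.55%). They also included STAT TTCNNNGAA (7.02%), NF-kB GGGNNTTCC (4.98%), AGATAA (9.99%) of GATA factors, HOX TAATTA (4.84%), and the longer NFI, EBF, SRF and CTCF motifs (0.0365%, 0.779%, 0.103% and 0.454%). A match describes the letters in these windows and is not a binding site.

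The Klhdc7a region also contained the only microRNA gene in any member, of 1005 hairpins in the RefSeq table. This was the hairpin of miR-2139 (chr4:139967526-139967620, minus strand), which began 406 bases after the start of Klhdc7a. Its mature form is printed with the seed, bases 2 to 8, in capitals.

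mmu-miR-2139: aGCUGCGCugcuccugguaacugc

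Several regions in 1 gene were uncommon among lost regions. Of the 238 hosts, 223 held a single member and 15 held 2 or more (6.30%, exact 95% interval 3.57 to 10.2%), with 35 regions between them. Among hosts of gained regions 252 of 925 held several (27.2%, 24.4 to 30.2%), from a list 5.33 times as long, so these shares are not on a like footing. Luzp1 and Prkcb held 4 lost regions each, Tns3 held 3, and the other 12 genes held 2.

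Luzp1 encodes a leucine zipper protein that associates with actin filaments and the base of the cilium. It had the densest set, 4.34 lost regions per 100 kb of gene. They lay at 136505355-136506372, 136517923-136518560, 136522875-136523202 and 136535161-136535958 on chromosome 4, within 30.6 kb of the 92.1 kb gene. Counted from the 5′ end the midpoints stood at 47.0, 60.4, 65.6 and 79.2% of its length, from the middle of the gene onwards. Their widths ranged from 328 to 1018 bp. No gained region lay inside Luzp1, and the nearest was 113 to 143 kb from its 4 lost regions. The neighbouring and partly overlapping gene Kdm1a, which encodes the histone demethylase LSD1, held a further lost region of 1269 bp (chr4:136598254-136599522), the third widest of all members. It lay 3.90 kb inside the 5′ end of Kdm1a and 62.3 kb from the last region of Luzp1.

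Prkcb, the gene of the calcium-dependent kinase protein kinase C beta, held its 4 regions over a wider stretch, 266 kb of 345 kb. The first (chr7:122297642-122298210) and the second (chr7:122304515-122304932) lay near the start, at 2.55 and 4.52% of the length. The third (chr7:122415407-122415822) stood at 36.6% and the fourth (chr7:122562550-122563352) at 79.3%. The gained regions nearest to them were 747 to 1012 kb away. In Tns3, which encodes a tensin that links integrins to actin, the 3 regions were gathered in 20.2 kb at the 3′ end. They were 8443422-8444250, 8451296-8452157 and 8463114-8463645 on chromosome 11, at 94.8, 91.4 and 86.4% of a gene on the minus strand. A gained region (chr11:8539650-8540340) lay 76.0 kb further towards the 5′ end of the same gene.

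**Figure D1:**
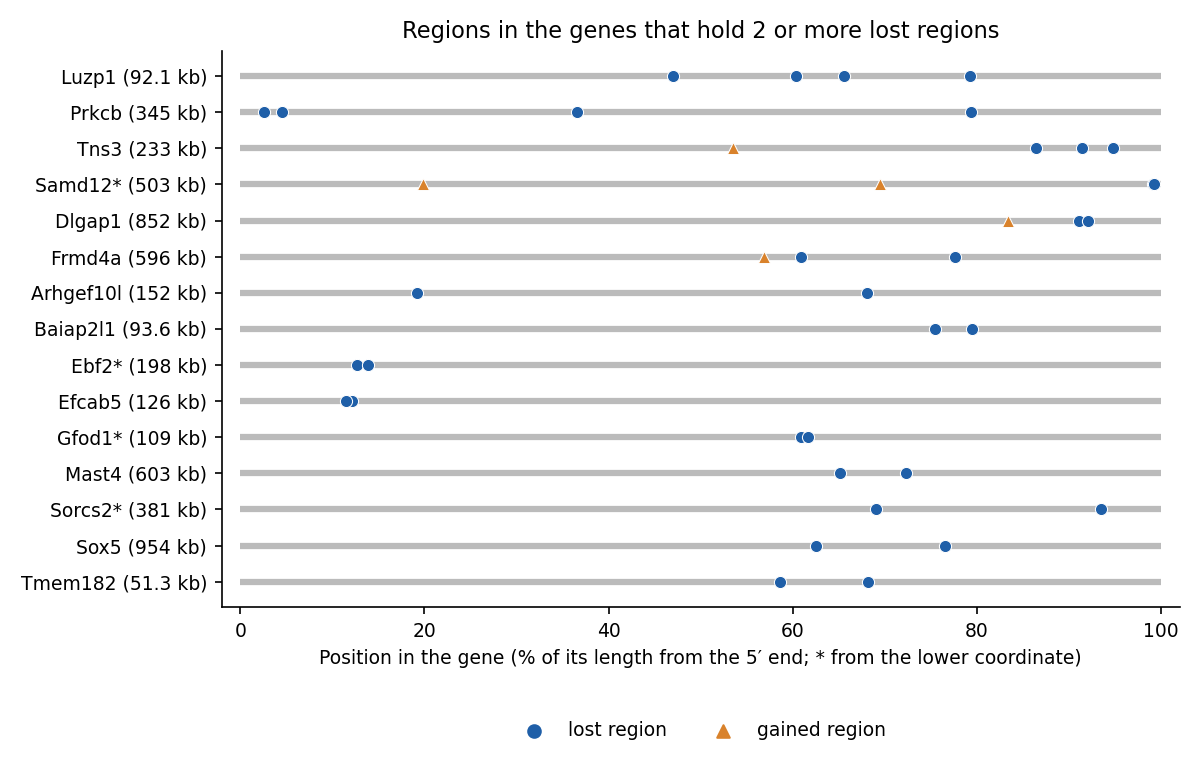
Each grey bar is 1 of the 15 genes with 2 or more lost regions, scaled to its own length (given in kb), with lost regions as circles and gained regions as triangles. The x axis is the position as a percentage of gene length from the 5′ end, or from the lower coordinate for the 4 genes marked with an asterisk, whose strand is not in the promoter table. The 4 regions of Luzp1 stand between 47.0 and 79.2%, those of Tns3 between 86.4 and 94.8%, and those of Prkcb are spread from 2.55 to 79.3%.

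Among the genes with 2 lost regions, 3 pairs lay almost edge to edge. The gap was 0.180 kb in Samd12, 0.202 kb in Gfod1 and 0.253 kb in Efcab5. In Ebf2, which encodes a transcription factor of brown fat cells and their progenitors, the regions (chr14:67258268-67258645 and chr14:67260277-67261134) were 1.63 kb apart. The pairs of Baiap2l1, an actin-bundling membrane protein, of Tmem182 and of Dlgap1, a synaptic scaffold, spanned 4.46, 5.46 and 8.76 kb. Wider pairs were those of Mast4, a microtubule-associated kinase, at 43.8 kb, Arhgef10l at 74.9 kb, Sorcs2, a sorting receptor of neurotrophins, at 94.6 kb, and Frmd4a at 99.7 kb. The widest was that of Sox5, a transcription factor of cartilage, at 134 kb (chr6:144052527-144052956 and chr6:144185980-144186437). With regions within 10 kb of each other merged, 8 genes kept at least 2: Luzp1 and Prkcb with 3 each, and Tns3, Frmd4a, Arhgef10l, Sorcs2, Sox5 and Mast4 with 2 each.

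Lost regions lay in shorter genes than gained regions did. The host of a lost region had a median length of 101 kb (quartiles 39.0 to 233 kb), and that of a gained region 207 kb (100 to 401 kb). With each host counted once the medians were 94.3 and 158 kb, against 17.2 kb over all 21883 protein-coding genes, a gap that the rule itself favours. Hosts longer than 200 kb held 73 of 258 lost regions (28.3%, exact 95% interval 22.9 to 34.2%) and 691 of 1344 gained regions (51.4%, 48.7 to 54.1%). This gave an odds ratio of 0.373 (adjusted p = 1.8e-11 over 3 shares compared, two-sided Fisher's exact test over regions). Regions are not replicates and neighbours are not independent, so this p measures the lists and not the spread between cultures. The shortest host was Hsd3b7, of bile acid synthesis, at 3.19 kb, and the longest was Macrod2, at 1998 kb.

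How often a gene held a region of either kind went with its length, which the rule of a midpoint inside a gene favours. Of all protein-coding genes, 1.09% held a lost region and 4.23% held a gained region. Among 11846 genes of up to 20 kb, 0.236% held a lost region and 0.211% a gained one, so the 2 kinds were about equally frequent. From 100 to 200 kb the shares were 3.75% and 17.2% of 1439 genes, and above 500 kb 11.1% and 50.9% of 226 genes. Both shares were higher in longer genes, and from the shortest to the longest class that of gained regions rose more. Seen over regions, lost ones made up 28 of 53 (52.8%, 38.6 to 66.7%) in hosts of up to 20 kb, 27.5% of 167 from 20 to 50 kb, 21.9% of 242 from 50 to 100 kb and 15.4% of 376 from 100 to 200 kb. They made up 8.78% of 490 from 200 to 500 kb and 10.9% of 274 above that, against 16.1% over all hosts.

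**Figure D2:**
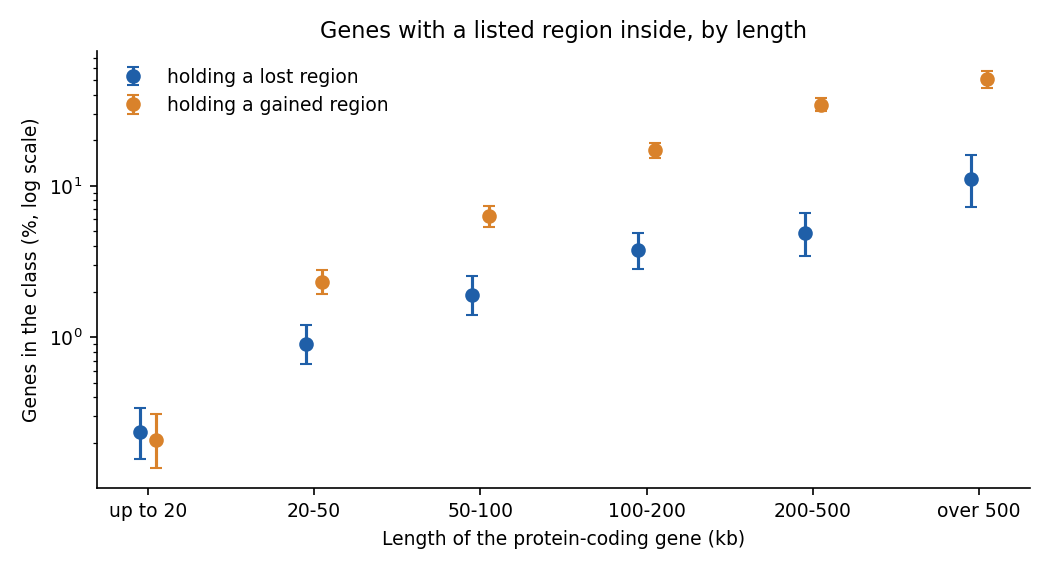
The share of protein-coding genes (%, log scale) that hold a lost region (blue) or a gained region (orange) is plotted for 6 classes of gene length in kb, with exact 95% intervals. The points coincide at 0.236 and 0.211% for genes of up to 20 kb and are 11.1 and 50.9% for genes over 500 kb.

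Lost regions also lay closer to an end of their host, a difference that did not pass within classes of host length. The median distance from midpoint to the nearer end was 19.5 kb (quartiles 8.12 to 45.9 kb) for lost and 45.0 kb (18.4 to 98.8 kb) for gained regions. Within 5 kb of an end were 42 of 258 lost regions (16.3%, 12.0 to 21.4%) and 93 of 1344 gained regions (6.92%, 5.62 to 8.41%). This gave an odds ratio of 2.62 (adjusted p = 1.0e-05, Fisher's exact test, two-sided). These classes were chosen after seeing the data and hold fewer regions each. In hosts of up to 50 kb the shares were 41.9% of 74 and 34.2% of 146 (odds ratio 1.38, Fisher's exact test, adjusted p = 0.45). From 50 to 200 kb they were 6.31% of 111 and 6.51% of 507 (odds ratio 0.967, adjusted p = 1.0). Above 200 kb they were 5.48% of 73 and 1.45% of 691 (odds ratio 3.95, Fisher's exact test, p = 0.037, adjusted p = 0.11), on 4 and 10 regions.

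**Figure D3:**
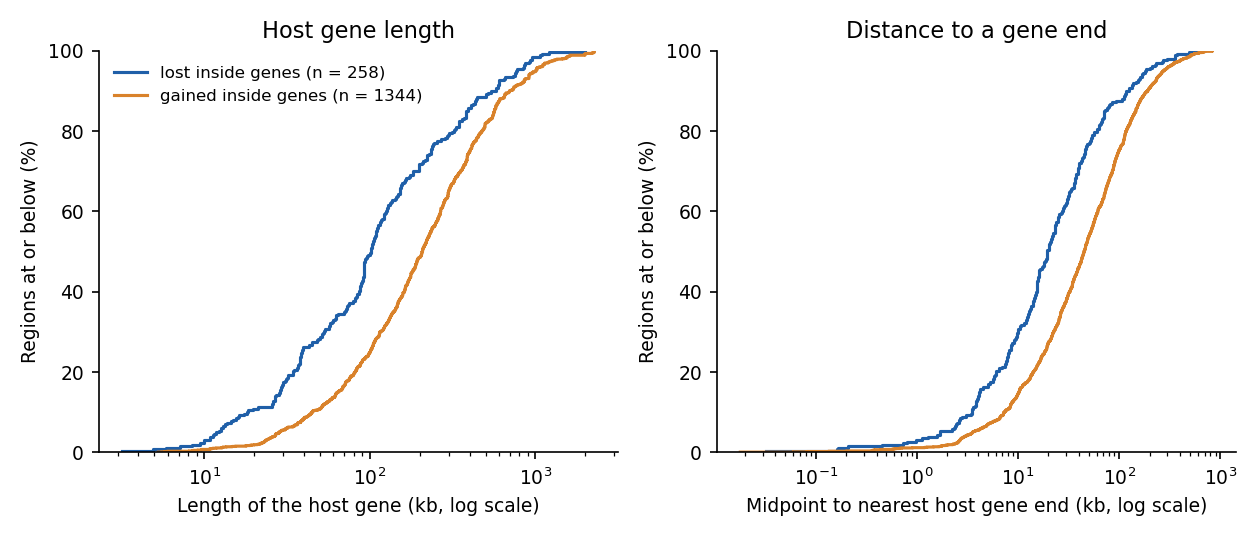
Cumulative shares of regions (%) are drawn against host length (left, kb, log scale) and against the distance from region midpoint to the nearer host end (right, kb, log scale), for 258 lost and 1344 gained regions inside genes. The lost curve lies left of the gained curve in both panels, with medians of 101 against 207 kb and of 19.5 against 45.0 kb.

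The members nearest to a gene end were few and named as follows. The midpoints in Tdrd7, Aunip, Klhdc7a and Txndc2, a thioredoxin of sperm, lay 32, 161, 165 and 208 bp inside the 5′ end, and these were the 4 regions that crossed an end of their host. Next came Cmpk1, a pyrimidine nucleotide kinase, 0.458 kb from its 3′ end, and Crcp, 0.723 kb from an end. Those in Hsd3b7 and in Cst6, a cystatin protease inhibitor, lay 0.802 kb from the 5′ end and 0.991 kb from an end. The last were Ap5z1, an adaptor complex subunit, 1.13 kb from its 3′ end, and Camk1d, a calmodulin-dependent kinase, 1.30 kb from its 5′ end. Strand was not given for Crcp and Cst6. The rule's own boundary fell among such regions. The lost regions just outside it had midpoints 156 bp from Nppb, 273 bp from Krt19 and 385 bp from Ptgs2. Requiring the whole region inside a span left 254 members, and allowing any overlap gave 260.

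Along the body of the gene the lost regions were spread much as the gained regions were. Strand was given for the hosts of 200 lost and 1065 gained regions. From 5′ to 3′ the 4 equal stretches of the host held 22.0, 24.5, 27.5 and 26.0% of lost regions and 21.4, 22.3, 29.7 and 26.6% of gained regions. Every exact 95% interval of the lost shares included 25%. Among gained regions that of the first stretch (19.0 to 24.0%) lay below it and that of the third (26.9 to 32.5%) above it. The lost intervals are wider, on 200 regions against 1065, so this contrast does not set the lists apart. For the first stretch the odds ratio of 1.04 did not pass (two-sided Fisher's exact test, adjusted p = 0.85). Nearer to the transcription start than to the 3′ end were 93 of 200 lost regions (46.5%, 39.4 to 53.7%) and 466 of 1065 gained regions (43.8%, 40.8 to 46.8%). The odds ratio of 1.12 did not pass (two-sided Fisher's exact test, adjusted p = 0.49). Within 5 kb of a listed start of the host lay 24 lost regions (12.0%, 7.84 to 17.3%) and 42 gained regions (3.94%, 2.86 to 5.29%), given as a description in which host length was not held constant.

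**Figure D4:**
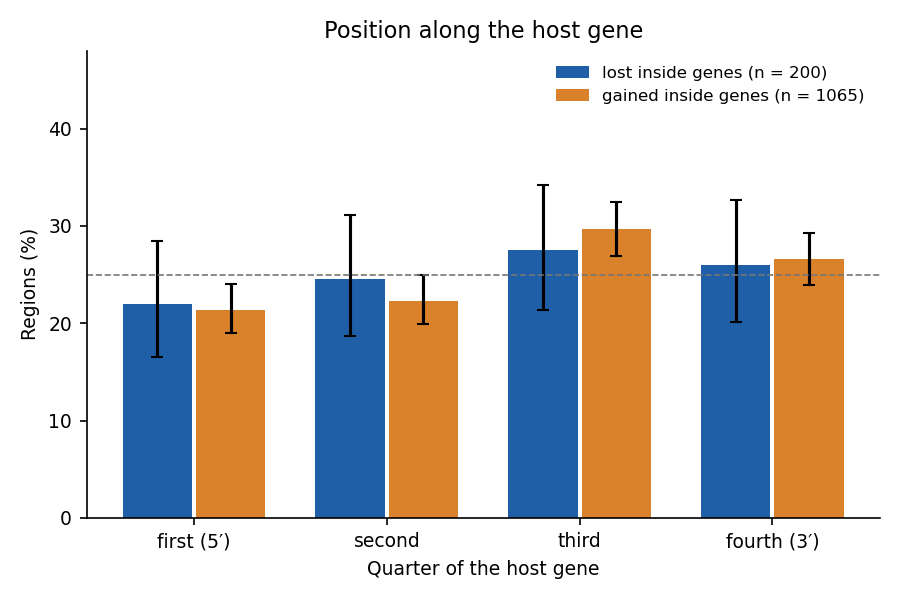
Bars give the share of regions (%) in each of 4 equal stretches of the host from 5′ to 3′, for 200 lost and 1065 gained regions whose host has a strand in the promoter table, with exact 95% intervals and a dashed line at an even 25%. The lost shares run from 22.0 to 27.5% and every lost interval includes the dashed line.

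Lost regions inside genes were 590 bp wide at the median (quartiles 474 to 766 bp, range 264 to 1335 bp). Gained regions inside genes had a median of 569 bp (437 to 765 bp) and lost regions between genes 632 bp (495 to 796 bp). The narrowest members were in Tpra1 (264 bp), in Daam1, a formin-family activator of actin assembly, and in Ppp1r18 (275 bp each). The widest were in Mroh4 (1335 bp), Mboat2, a phospholipid acyltransferase (1280 bp), and Kdm1a (1269 bp). The midpoints of 18 members (6.98%) also lay in the span of a long noncoding RNA gene.

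Chromosomes 4, 11 and 5 held the most members, 33, 27 and 25. Of all listed regions inside genes, lost or gained, 31.0% were lost on chromosome 11 (exact 95% interval 21.5 to 41.9%), 27.5% on chromosome 4 (19.7 to 36.4%) and 26.0% on chromosome 5 (17.6 to 36.0%). On chromosome 10 the share was 6.38% (2.38 to 13.4%), with 6 lost and 88 gained regions. Over all chromosomes it was 16.1%. Per 1000 protein-coding genes, chromosome 4 held 24.8 lost regions and the genome 11.8.

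**Figure D5:**
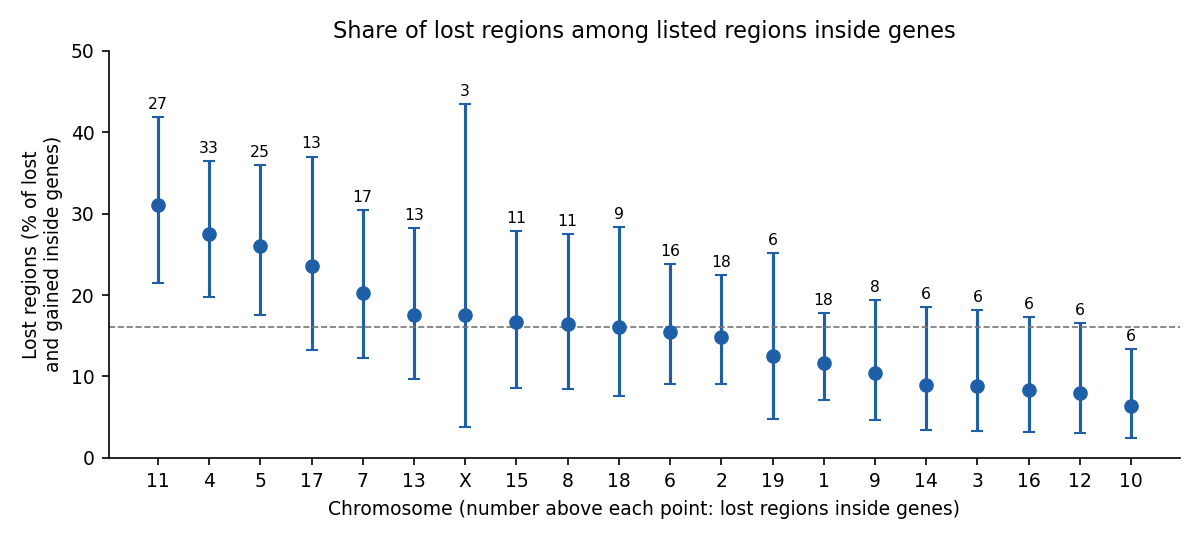
The share of lost regions among all listed regions inside genes (%) is plotted for each chromosome in descending order, with exact 95% intervals, the number of lost regions above each point and the share over all chromosomes as a dashed line. Chromosomes 11, 4 and 5 lie highest, at 31.0, 27.5 and 26.0%, with intervals above the dashed line at 16.1%, and chromosome 10 is lowest at 6.38%.

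On chromosome 4 the members were crowded in its distal part. In tiles of 10 Mb counted from the first base of each chromosome, the tile from 130 to 140 Mb of chromosome 4 held 15 lost regions in 12 hosts and only 6 gained regions inside genes. The next tiles held 6 members each, on chromosome 15 from 50 to 60 Mb and on chromosome 7 from 120 to 130 Mb. With lost regions between genes counted too, the chromosome 4 tile held 27 and these next tiles 7 and 11. The crowding was thus not particular to lost regions inside genes. Of 284 tiles with a protein-coding gene, 133 held any member and 14 held 4 or more. The tile has 180 protein-coding genes with a median length of 18.4 kb. The part of gene density in its count was not tested, and the sources used here do not state the strain background of the cells.

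The hosts of that stretch, in order, were Adgrb2, an adhesion receptor, Zdhhc18, a palmitoyltransferase, Aunip, Luzp1 with its 4 regions and Kdm1a. They were followed by Cdc42, a small GTPase that drives filopodia (chr4:137345306-137346190, 12.0 kb inside the gene), and Hspg2, which encodes perlecan of the basement membrane (chr4:137498348-137498670). Then came Ece1, the endothelin-converting enzyme, Vwa5b1, Tmco4, Aldh4a1, a mitochondrial enzyme of proline breakdown, and Klhdc7a. Of these 12 hosts Ece1 and Aldh4a1 each held 1 gained region as well. The adjoining tile from 140 to 150 Mb held 5 more members, in Igsf21, Padi4, Mtor and Arhgef10l, which held 2. The tile was picked for its count, so the values are a description, and neither the genes nor the tile were tested. Without chromosome 4 the odds ratio for hosts over 200 kb was 0.434 (two-sided Fisher's exact test, adjusted p = 9.0e-08) and for a midpoint within 5 kb of an end 2.51 (adjusted p = 7.9e-05).

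Genes of the BMP pathway held 2 members. Of 48 genes for BMP and TGF-beta ligands, receptors, modulators and SMADs, 2 held a lost region (4.17%, against 1.09% of all protein-coding genes). A gained region lay in 8 (16.7%, against 4.23%). These genes have a median length of 46.2 kb, longer than the 17.2 kb over all genes, and length was not held constant in this or the next counts. Bmp6, a ligand able to signal through ALK2, held a region 4.26 kb inside its 5′ end (chr13:38349742-38350217, 476 bp). Smad3, the signal transducer of TGF-beta and activin receptors, held one at 32.5% of its length, 36.1 kb from the start (chr9:63721663-63722044, 382 bp). None of 14 BMP-SMAD target genes held a lost or a gained region. Acvr1 (chr2:58446438-58566828) held none either, and the nearest lost region was 1608 kb away.

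Of bone and cartilage genes, 1 of 22 bone formation genes (4.55%) and 1 of 23 cartilage, tendon and joint genes (4.35%) held members, against 1.09% of all genes. Each share rests on 1 gene. The first was Zfp521, a zinc finger regulator of osteoblast and mesenchymal progenitors, with 1 lost and 2 gained regions, the gained ones 30.6 and 30.8 kb from the lost one. The second was Sox5 with its pair of lost regions and no gained region. Gained regions lay in 4 and 3 genes of these lists (18.2 and 13.0%, against 4.23% of all genes). Of 20 fat cell genes 3 held 4 lost regions (15.0%): Ebf2 with 2, its relative Ebf1 with 1 at 28.7% of its length (chr11:44729882-44730480), and the insulin receptor gene Insr with 1. Gained regions lay in 2 genes of that list (10.0%), whose median length is 91.6 kb.

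Genes of matrix, adhesion and the cytoskeleton held few members. Of all protein-coding genes 1.09% held a lost and 4.23% a gained region. Gained regions lay in 12.8% of the extracellular matrix genes below and 16.2% of the focal adhesion and integrin genes. They lay in 7.14% of the actin and contraction genes and 12.5% of the YAP/TAZ and TEAD genes. Extracellular matrix genes had 3 hosts of 39 (7.69%): Hspg2, Nid1, which encodes the basement membrane linker nidogen (chr13:13474567-13475582), and Mmp14, which encodes a membrane-bound collagenase, 3.84 kb inside its 5′ end (chr14:54435076-54435799). Of 44 collagen genes Col5a1 and Col23a1 held 1 each (4.55%), and 7 held gained regions (15.9%). Focal adhesion and integrin genes had 3 hosts of 37 (8.11%) with 5 regions, namely the 3 of Tns3, 1 in the integrin gene Itgb3 (chr11:104631347-104631739) and 1 in Parvb, which encodes the integrin-linked protein beta-parvin, 3.58 kb inside its 5′ end (chr15:84235189-84236055). Actin and contraction genes had 2 hosts of 42 (4.76%), Cdc42 and the nonmuscle myosin gene Myh9, the latter 5.82 kb from its 3′ end (chr15:77766192-77766611). Of 24 YAP/TAZ and TEAD genes, which act in the response to mechanical force, 2 held a member (8.33%). These were Amotl1, which encodes an angiomotin that binds YAP (chr9:14559514-14560408), and Tead4, a DNA-binding partner of YAP, 4.21 kb from a gene end (chr6:128296404-128296795).

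Signalling genes further held members in Met, the receptor of hepatocyte growth factor (chr6:17478796-17479559), and Insr, 2 of 42 growth factor and MAP kinase genes (4.76%). Protein kinase C and diacylglycerol kinase genes had 2 hosts of 22 (9.09%), Prkcb with 4 and Dgkd with 1. Of 35 inflammation and interferon genes only Lif (2.86%), a cytokine of the interleukin-6 family, held one, 3.85 kb inside its 5′ end (chr11:4261130-4261711). Gained regions lay in 14.3, 18.2 and 2.86% of these lists, in the order given. Over all protein-coding genes the shares were 1.09% for lost and 4.23% for gained regions.

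The remaining groups are read against the 1.09% of all protein-coding genes that held a lost region and the 4.23% that held a gained one. Of 41 WNT pathway genes 0 held a lost region and 9 held a gained one (22.0%). Of 58 ADAM and ADAMTS protease genes 0 held a lost and 8 a gained region (13.8%), and of 375 solute carrier genes 0 and 21 (5.60%). At a background of 1.09%, a count of 0 in lists of 41 and 58 genes does not set them apart. These gaps between the directions were not tested, and the gained list is the longer. AP-1 and immediate early genes, 23 in number and 5.34 kb long at the median, held neither. Ion channel genes of the Kcn, Cacn and Trp families had 4 hosts of 130 (3.08%; Kcnj15, Kcnk1, Kcnn3 and Kcnq1), ubiquitin ligase genes 4 of 229 (1.75%; Fbxo32, Rnf213, Rnf216 and Trim55), and Zfp genes 2 of 397 (0.504%; Zfp521 and Zfp326). Semaphorin, plexin and ephrin genes had 1 of 65 (1.54%; Plxna4, against 13 with a gained region), and SOX and forkhead genes 1 of 63 (1.59%; Sox5). In all, 39 of the 238 hosts belonged to any of the 29 lists, which hold 1947 genes, and 10 lists had no host.

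Marker genes of other cell types held members about as often as all protein-coding genes (1.09%), so their counts are not a result about these markers. Macrophage and blood (17 genes), endothelial (14), skeletal muscle (15), epithelial and mesothelial (17) and smooth muscle (14) markers held 0 lost regions. Of 17 neural and glial markers, Pax6, an eye and forebrain transcription factor, held 1 (chr2:105675056-105675726). The lists give positions only, so the share of any other cell type in the cultures was not tested.

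A minority of hosts held regions of both directions. There were 34 such genes, 14.3% of the hosts of lost regions (exact 95% interval 10.1 to 19.4%) and 3.68% of the hosts of gained regions (2.56 to 5.10%). Of all protein-coding genes 4.23% held a gained and 1.09% a lost region, so both shares lay above those of all genes. The 34 genes held 39 lost and 56 gained regions, and 20 of them held 1 of each. Their median length was 270 kb, against 86.1 kb for hosts of lost regions only, and length was not held constant in these shares. By length, a gained region lay in 6.28% of all genes of 50 to 100 kb and 17.2% of those of 100 to 200 kb. From 200 to 500 kb it was 34.3%. No member overlapped a gained region, which is no result about the members if both lists came from a common set of peaks. The distance between the nearest lost and gained region of a shared gene ran from 1.87 to 205 kb, with a median of 53.5 kb.

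The closest neighbours were in Gcnt2, a glycosyltransferase gene, where the lost region (chr13:40921323-40921896) was 1.87 kb from a gained region (chr13:40923764-40924120). They were followed by Aldh4a1 (5.82 kb), Prkar1b, a regulatory subunit of protein kinase A (6.78 kb), and Shb, an adaptor of tyrosine kinase signalling (9.62 kb). The most gained regions beside a lost one were in Nav2, a cytoskeletal guidance gene, with 6. Its lost region (chr7:49601069-49602057) stood at 98.7% of the gene, 14.1 kb from the last gained one. Macrod2 held 5 gained regions, and its lost region lay 592 kb from the nearer end, deeper than in any other host. Sugct held 4, and Arhgap26 and Hmcn1, which encodes the matrix protein hemicentin, held 3 each.

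Members were sparse along the genome. The nearest other lost region was 1065 kb away at the median, and the nearest gained region 404 kb. Within 10 kb of another lost region were 20 members (7.75%, 4.80 to 11.7%), and within 50 kb of a gained region 28 (10.9%, 7.33 to 15.3%). Among gained regions inside genes, 12.5% had a gained neighbour within 10 kb and 2.31% a lost one within 50 kb. The lists differ 5.33 times in size, and these shares were not tested.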

How the data were processed

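ATAC-seq was done on 3 wild-type and 3 FOP mutant libraries of mouse embryonic fibroblasts. The authors deposited a pair of region lists, 1 per direction, in base pair positions (BED), with no header and no measurement per region or library. The submitters' processing notes name DESeq2, featureCounts, bedtools, MACS2, SAMtools, Bowtie2 and Trimmomatic, with the builds GRCm38 and mm10. The sources used here do not give versions, cutoffs, the handling of the transposase offset and of duplicates, or whether peaks were called per library. Each of these could shift a region's edges or its place on a list.

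Positions were set 1-based, and a region was inside a gene where its midpoint lay in a RefSeq protein-coding span (GRCm38.p6, 21883 genes). If several spans held it (2 members), the gene with the nearest end was the host. Transcription starts, strand and promoter sequences came from the RefSeq promoter table (32851 windows, 250 bases before to 50 after a start), which gave a strand for 17491 genes. Exons, and motifs inside regions, were planned and not run, as no genome was used here. Shares carry Clopper-Pearson 95% intervals, which cover counting error only. The 3 compared shares used two-sided Fisher's exact tests over regions, called at 0.05 after Benjamini-Hochberg adjustment. The code was tested on simulated data.

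The regions and gene lists were chosen with earlier results of these data known. All 504 symbols of the 19 symbol lists matched; 10 lists were drawn by name pattern, and the result of 1 of them is not reported here. Genes named are those with 2 or more lost regions, the 10 nearest to an end, the 3 widest and narrowest, up to 4 hosts per list, the 5 with most gained regions, the longest, the shortest and Acvr1. All others, including the hosts on distal chromosome 4, those closest to a gained region and the genes just outside the rule, were chosen after their values were seen. Computations used Python 3.11.15 with pandas 2.3.3, numpy 2.4.6 and scipy 1.17.1.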

Additional observations from a re-analysis of the deposited data

How the results depend on the processing

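No paired analysis was possible because the lists hold no value per library, and for the same reason no library could be left out in turn. Of 39 alternative values, 32 were counted as unchanged, with a wide allowance where no test was run. Spans of all gene types gave 326 members against 258. Members with another lost region nearby were 5.43% within 5 kb and 10.9% within 50 kb, against 7.75% within 10 kb. The larger share of lost regions near a host end (odds ratio 2.62) lost its call within 1 kb (2.66, Fisher's exact test, adjusted p = 0.064, on 8 and 16 regions), and its call or direction within hosts of like length (1.38 up to 50 kb, 0.967 from 50 to 200 kb, 3.95 above 200 kb). Fewer regions were tested in each of these length classes. The 1 kb and length-class alternatives apart, it ran from 2.51 to 2.71, over limits of 10 and 20 kb, merging within 10 kb, the shortest span as host and leaving out chromosome 4, 5 or 11. The odds ratio for hosts over 200 kb ran from 0.342 to 0.593 over all its alternatives and kept its call. Genes with several lost regions fell from 15 to 8 with regions within 10 kb merged, and members near a gained region were 1.94% within 10 kb and 21.3% within 100 kb. The length classes and the runs without a chromosome were chosen after seeing the data. The exon and region motif alternatives were not run. Peaks that did not change are not analysed here, so no share is relative to open chromatin.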

Other observations

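Some hosts of lost regions fell in small families or complexes. These were picked after the hosts were seen and are given as values with no test. Of all protein-coding genes 1.09% held a lost region, of those of 200 to 500 kb 4.85%, and of longer ones 11.1%. The hosts named here include long genes, such as Dlgap1 at 852 kb, and shorter ones, such as Mast1 at 34.3 kb. Length was not held constant in these counts or in those of the next paragraph. Both members of the FRMD4 pair, Frmd4a and Frmd4b, held a lost region, as did 2 of 4 EBF transcription factors (Ebf1 and Ebf2), with no gained region in any of the 4. The MAST kinases had 2 hosts of 5 (Mast1 and Mast4) and again no gained region. The SorCS receptors had 2 of 3 (Sorcs1 and Sorcs2), and Sorcs3 held a gained region only. In the neuron navigators (Nav1 and Nav2), the DLGAP scaffolds (Dlgap1 and Dlgap2) and the regulatory subunits of protein kinase A (Prkar1b and Prkar2b), each host of a lost region also held a gained one. The lost hosts were 2 of 3, 2 of 5 and 2 of 4 genes. In larger families the shares were lower, with 2 hosts of 13 septin genes (Septin6 and Septin9) and 2 of 24 ZDHHC palmitoyltransferase genes (Zdhhc18 and Zdhhc21).

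Of the 3 core genes of mTOR complex 1, 2 held a lost region and Mlst8 held none. Mtor, the kinase of the nutrient-sensing mTOR complexes (chr4:148510670-148511139, at 57.1% of the gene), and Rptor, its partner in complex 1 (chr11:119817396-119818409, at 72.5%), each held 1, and Rptor a gained region 49.8 kb away. Of 4 KDM1 and KDM2 histone demethylase genes, Kdm1a and Kdm2b held lost regions near the 5′ end, at 7.46 and 8.26% of the gene. Of 4 class I histone deacetylase genes, only Hdac1 held one, of 830 bp (chr4:129528800-129529629). Of 14 Hedgehog pathway genes, Hhip and Sufu held lost regions, and Cdon, Gli2 and Gli3 held gained ones. Hhip and Sufu encode inhibitors of the pathway. The region of Hhip stood at 27.6% of the gene (chr8:80031961-80033210) and that of Sufu at 89.3% (chr19:46478329-46479570).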
